A study of Mus musculus with 9 samples.

Results

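Wnt5a, Wnt7a, Wnt7b, Sfrp1, Sfrp2, Wif1, Dkk3, Axin2 and Lef1 are genes of Wnt signalling that were followed in the mouse olfactory bulb from mid-gestation to birth. They comprise 3 Wnt ligands, 4 secreted antagonists or relatives of antagonists and 2 genes that report pathway activity in many tissues. The members were the probe sets whose single gene symbol was one of these 9 names. The array carried 22 such probe sets among 45101, and all 9 genes had at least 1. Of the 22, 16 read log2 5 or more on at least 2 arrays and were tested for a trend with age, among 18566 probe sets tested in all.

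The olfactory bulb, the first relay of smell in the forebrain, was dissected from wild-type mice of the outbred CD1 strain on 9 successive days, E11 to E18 of gestation and P0, the day of birth. The labels name no treatment or mutation, and the groups are defined by age. Each age was 1 individual and 1 Affymetrix mouse genome array, hybridised with RNA amplified in 2 rounds. The series was made to find transcription factors of the bulb's local progenitors, as its title states.

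Wnt proteins are lipid-modified secreted signals. In the canonical branch, a Wnt bound to a Frizzled receptor and an Lrp co-receptor stops the breakdown of β-catenin, which then acts with Tcf and Lef factors on target genes, while other branches steer cell polarity and movement without β-catenin. Secreted frizzled-related proteins and Wif1 bind Wnts outside the cell, and in the developing forebrain the pathway is known for its roles in progenitor division, patterning and growth of blood vessels.

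The bulb label was checked against marker lists. Mitral and tufted cell genes, the bulb's output neurons, were present: 4 of 6 tested rose and 1 fell. All 8 tested genes of the GABAergic interneuron lineage rose. Of 8 measured genes of the olfactory epithelium list, Omp, Gng8, Cnga2, Ascl3, Krt5 and Cbr2 were under the filter, although Krt5 read 5.12 at E12 and Cbr2 5.38 at P0. Adcy3 and Gap43, which other neurons also express, both rose. Of 5 muscle genes, Myog, Myod1, Myh3 and Tnnt1 were under the filter and Acta1 rose, from 4.73 at E11 to 6.22 at P0. The dissected tissue also held other cell types. Of 4 tested red cell genes, the globin genes Hbb-y, Hba-x and Hbb-bh1 fell and Alas2 did not pass, and Hba-a1 was under the filter. The median of the 4 went from 13.72 at E11 to 2.96 at P0. Tested astrocyte genes rose from a median of 2.86 at E11 to 10.21 at P0 (6 of 6 rose). Gfap, also on the astrocyte list, was under the filter and did not exceed 2.47. Xist read 13.42 to 13.98 on the E11, E12, E15 and P0 arrays and at most 2.76 on the others, so the sexes were spread unevenly over age. In whole tissue, fewer cells of a type and less RNA per cell cannot be told apart.

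Among the members, Wnt5a and Dkk3 rose with age, Wnt7b, Sfrp1 and Sfrp2 fell, and Wnt7a, Wif1, Axin2 and Lef1 gave no straight trend that passed the test. The test was limma's moderated test of the slope of the log2 level on age, with P0 as day 19, Benjamini-Hochberg adjustment over the 18566 probe sets and a threshold of 0.05. By probe set, 4 of the 16 tested rose, 7 fell and 5 did not pass. Age trends were common on these arrays, since 44.1% of all tested probe sets passed, 22.1% as rises and 22% as falls. By gene, with the probe set of the highest mean, 5 of 9 passed. That is near the background share, which counts every tested probe set rather than genes. Because each age was a single array, no age has a replicate error. The spread given below is that of the arrays around a fitted line. It includes any departure of the course from that line.

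**Figure D1:**
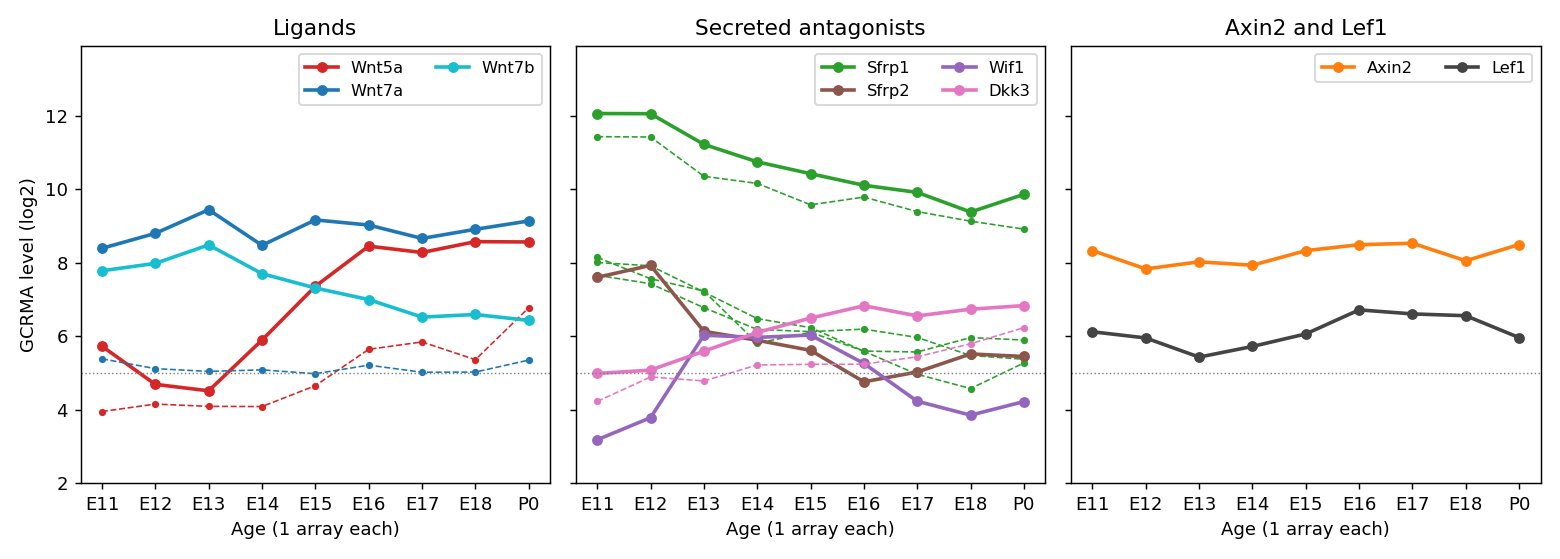
GCRMA level (log2) of the 16 tested probe sets on the 9 arrays, by age, for ligands, secreted antagonists, and Axin2 and Lef1. Solid lines are the probe set with the highest mean of each gene, dashed lines its other tested probe sets, and the dotted line marks log2 5. Wnt5a climbs from E13 to E16, Sfrp1 falls on all 5 of its probe sets, and Wif1 is above the dotted line from E13 to E16 only.

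Wnt5a, a ligand that in many settings signals without β-catenin, showed the largest rise of the set. On probe set 1436791_at its log2 level was 5.73 at E11, 4.69 at E12, 4.52 at E13, 5.90 at E14, 7.36 at E15, 8.45 at E16, 8.28 at E17, 8.57 at E18 and 8.57 at P0. The course was not a straight line. Levels dipped at E12 and E13, climbed by 1.38, 1.46 and 1.09 on the log2 scale over the 3 steps from E13 to E16, and stayed within 0.30 of each other from E16 to P0. The last 4 arrays read higher than the first 5, a split chosen after the values were seen. P0 was 7.15-fold above E11 and at least 11.8-fold above E13, with the E13 value raised to log2 5, the lower limit used for folds throughout. Steps of 2-fold or more between neighbouring single arrays were seen for 3.98% of tested probe sets from E13 to E14, 7.04% from E14 to E15 and 2.75% from E15 to E16.

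The fitted slope of Wnt5a was 0.55 ± 0.090 log2 units per day (SE, 9 arrays; limma adjusted p = 0.000894). Among the 4103 probe sets that rose, 8.46% were steeper. The arrays scattered around that line with a residual SD of 0.83, which also holds the departure of the course from a straight line. With 1 array per age, the order of E16, E17, E18 and P0 cannot be read. A second probe set, 1448818_at, rose too, with another shape. It read 3.95 at E11, 4.15 at E12, 4.09 at E13, 4.09 at E14, 4.66 at E15, 5.64 at E16, 5.85 at E17, 5.36 at E18 and 6.77 at P0. It was under log2 5 until E15 and highest at P0, at least 3.42-fold above E11 (slope 0.33 ± 0.053, SE, 9 arrays; limma adjusted p = 0.000809). Of the 2 untested Wnt5a probe sets, 1437673_at reached log2 5 at P0 alone (5.35) and was lowest at E13 (2.77), and 1456976_at stayed between 2.24 and 2.65.

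Genes of the meninges and other mesenchyme moved with Wnt5a. All 12 genes of that marker list were tested and 11 rose, Lum being the one that did not pass. Their median log2 level was 6.82 at E11, 4.96 at E12, 5.48 at E13, 6.92 at E14, 8.07 at E15, 9.12 at E16, 9.36 at E17, 9.53 at E18 and 9.77 at P0, with the same dip at E12 and E13 and the same climb to E16. Over the 9 arrays, which share age as well as RNA, the Pearson correlation of Wnt5a with that median was 0.99. The next highest lists were the GABAergic lineage (0.91) and olfactory ensheathing cells (0.89). The part of mesenchymal cells in the Wnt5a course was not tested. The 3 genes whose levels were most like those of Wnt5a were Jcad (r = 0.997), Tmem64 (0.994) and Foxc1 (0.994, on a probe set other than the one in the marker list), each over 9 arrays and given as a description.

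**Figure D2:**
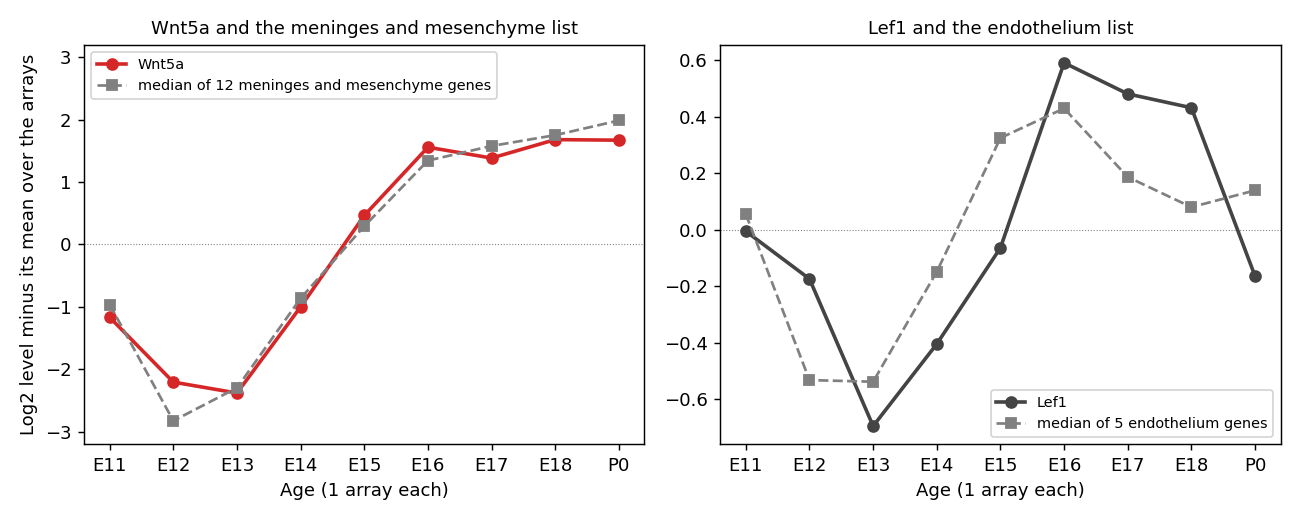
Log2 level on each array minus its mean over the 9 arrays, by age, for Wnt5a with the median of 12 meninges and mesenchyme genes (left) and Lef1 with the median of 5 tested endothelium genes (right). Wnt5a and its list are both lowest at E12 and E13 and both high from E16. Lef1 and the median of its list are both lowest at E13 and highest at E16.

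Wnt7a and Wnt7b are close paralogs of the ligand family, known in the brain for signalling to blood vessels and, for Wnt7a, to synapses. Their courses separated with age. Wnt7b on 1420892_at read 7.78 at E11, 7.98 at E12, 8.48 at E13, 7.70 at E14, 7.31 at E15, 7.00 at E16, 6.52 at E17, 6.59 at E18 and 6.43 at P0. It was highest at E13. Each of the last 5 arrays was lower than any of the first 4, a split chosen after the values were seen. E11 was 2.55-fold and E13 4.15-fold above P0. The slope was -0.24 ± 0.042 log2 units per day (SE, 9 arrays; limma adjusted p = 0.00136), and 19.2% of the 4089 probe sets that fell were steeper. The residual SD of 0.35 exceeds the differences among E17, E18 and P0. The other Wnt7b probe set, 1420891_at, never exceeded 2.21.

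Wnt7a on 1423367_at read 8.39 at E11, 8.80 at E12, 9.44 at E13, 8.47 at E14, 9.17 at E15, 9.03 at E16, 8.66 at E17, 8.91 at E18 and 9.14 at P0. Early and late arrays overlapped, and the range over all ages was 2.07-fold, from E11 to E13. The slope of 0.038 ± 0.041 (SE, 9 arrays; limma adjusted p = 0.470) did not pass. A second probe set, 1447647_at, lay between 4.98 and 5.39 and correlated at -0.27 with the first over the 9 arrays, and the remaining one, 1458334_at, stayed at or under 2.40. Levels so close to the filter carry little information on the course.

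The difference between the paralogs was tested directly. Wnt7a minus Wnt7b, in log2 units, was 0.61 at E11, 0.82 at E12, 0.96 at E13, 0.77 at E14, 1.85 at E15, 2.03 at E16, 2.14 at E17, 2.32 at E18 and 2.70 at P0. Since probe sets differ in efficiency, only the change of this difference with age can be read, not its sign. It grew by 0.27 ± 0.032 per day (SE, 9 arrays), with an exact two-sided permutation p of 6.06e-05 over the 362880 orders of the arrays, or 0.000182 after Benjamini-Hochberg adjustment over the 3 pairs compared. The last 5 arrays lay above the first 4, again a split chosen after the values were seen. The genes most like Wnt7b over the 9 arrays were Mtmr9 (r = 0.981), Mex3a (0.974) and Csnk1d (0.968), the last a kinase of the pathway's cytoplasmic part, and those most like Wnt7a were Prag1 (0.978), Rab40c (0.965) and Zfp28 (0.959).

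**Figure D3:**
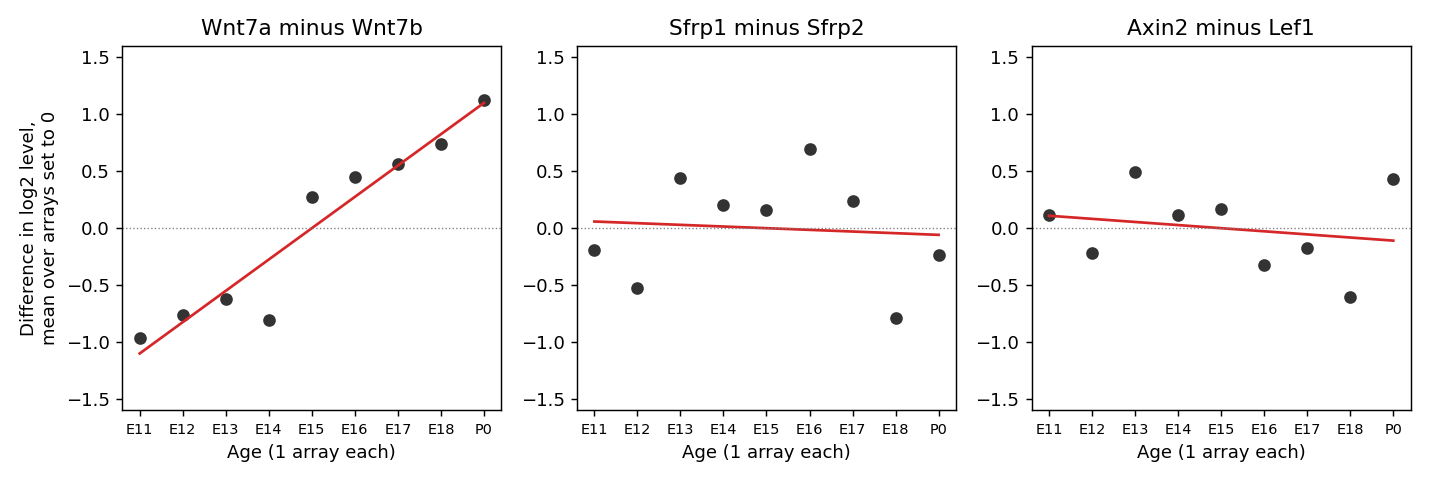
Difference in log2 level between paired genes on each array, with its mean over the 9 arrays set to 0, by age. Each point is 1 array and the red line is the fitted slope. The Wnt7a minus Wnt7b difference grows with age by 0.27 per day, and the fitted lines of the other pairs are nearly flat, with points scattered on both sides.

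Sfrp1, a secreted frizzled-related protein known from forebrain progenitors, fell on all 5 of its probe sets. On 1428136_at it read 12.06 at E11, 12.06 at E12, 11.22 at E13, 10.75 at E14, 10.42 at E15, 10.11 at E16, 9.92 at E17, 9.38 at E18 and 9.86 at P0. Levels were flat from E11 to E12 and then lower on each next array to E18. E11 was 4.59-fold above P0, and the slope was -0.33 ± 0.036 log2 units per day (SE, 9 arrays; limma adjusted p = 9.36e-05), with 9.44% of the falling probe sets steeper. The residual SD was 0.32.

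The other 4 Sfrp1 probe sets gave the same direction over different ranges. On 1448395_at the level went from 11.43 at E11 to 8.92 at P0, a 5.72-fold fall. On 1460187_at it went from 8.01 at E11 to 4.58 at E18 and 5.27 at P0, with the steepest slope of the 5 (-0.44 ± 0.048, SE, 9 arrays; limma adjusted p = 9.23e-05). On 1438620_x_at it went from 7.66 to 5.37. The exception in shape was 1416594_at, which fell from 8.15 at E11 to 5.81 at E14 and then lay between 5.57 and 6.11. Its quadratic term passed (limma adjusted p = 0.0316), with the fitted low point at day 16.9, against 5.39% of all tested probe sets that passed this test and 0.862% that did so as a dip. That curvature call was lost when any 1 of 7 arrays was left out, all but E12 and E13, with adjusted p up to 0.0958. Over E13 to P0 alone the trend of this probe set did not pass (adjusted p = 0.205), while the 4 others did. The correlation of 1428136_at with its companions ran from 0.89 to 0.99 over the 9 arrays.

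Sfrp2, the closest relative of Sfrp1 among the members and likewise a Wnt-binding protein, had 1 probe set, 1448201_at. It read 7.60 at E11, 7.93 at E12, 6.13 at E13, 5.89 at E14, 5.62 at E15, 4.76 at E16, 5.03 at E17, 5.52 at E18 and 5.45 at P0. E11 and E12 stood above all later arrays, and most of the fall lay in the single step from E12 to E13, which was 3.47-fold. Steps of 2-fold or more were common between those 2 arrays, at 9.85% of tested probe sets. E11 was 4.45-fold above P0, and the slope of -0.32 ± 0.077 passed (SE, 9 arrays; limma adjusted p = 0.00721). From E13 to P0 alone the slope was -0.12 and did not pass (adjusted p = 0.254), so the call rests on both earliest arrays. The residual SD of 0.69 is larger than the differences among E17, E18 and P0.

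The trends of Sfrp1 and Sfrp2 could not be separated. The difference between them changed by -0.015 ± 0.065 log2 units per day (SE, 9 arrays; exact permutation p = 0.825, also 0.825 after adjustment over 3 pairs). With 9 arrays this does not show that they fell alike.

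Markers of radial glia and progenitors and of dividing cells fell over the same days. Of 9 radial glia genes tested, 8 fell and 1 rose, and their median went from 11.37 at E11 to 9.46 at P0. All 9 cell cycle genes tested fell, from a median of 11.85 to 8.77. The cell cycle median was the level of Cdk1 on every array. The radial glia median was that of Pax6, except for Hmga2 at E13 and Slc1a3, the gene that rose, at E14 and E15. Over the 9 arrays Sfrp1 correlated with the radial glia median at 0.98 and Sfrp2 at 0.89. The red cell median also fell with age, through 3 globin genes and not Alas2, and gave 0.98 and 0.91. These correlations thus do not single out a cell type. The part of cell composition was not tested. The genes most like Sfrp1 were Timeless (r = 0.995), a replication factor, Boc (0.993), a hedgehog co-receptor, and Gar1 (0.993). Those most like Sfrp2 were Srek1 (0.996), Foxm1 (0.990), a regulator of mitosis, and Nxn (0.976), a thioredoxin-like protein that binds Dishevelled.

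Wif1, a secreted inhibitor that binds Wnts directly, was highest in the middle of the series. Its single probe set, 1425425_a_at, read 3.18 at E11, 3.78 at E12, 6.03 at E13, 5.97 at E14, 6.03 at E15, 5.26 at E16, 4.23 at E17, 3.85 at E18 and 4.22 at P0. It reached log2 5 on the 4 arrays from E13 to E16 and on no other. E13 was at least 2.04-fold above E12 with E12 raised to log2 5 (4.74-fold as deposited). A straight line described it poorly (slope 0.0010 ± 0.13, SE, 9 arrays; limma adjusted p = 0.996).

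The quadratic term of Wif1 passed narrowly, with limma adjusted p = 0.0466 and a fitted peak at day 15.0, beside 4.07% of all tested probe sets that passed as a peak inside the course. The call did not hold without E11, E12, E14, E15, E16 or E18 (adjusted p 0.0600 to 0.230). It also failed with values under log2 5 set to 5 (0.131), with sex as a covariate (0.139) and with P0 placed at day 20 (0.127). From E13 to P0 alone Wif1 fell, by 0.41 log2 units per day (limma adjusted p = 0.00510). The genes most like it over the 9 arrays were Nrp2 (r = 0.965), a semaphorin co-receptor, Id2 (0.955) and Prmt2 (0.949).

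Dkk3, a secreted relative of the Dickkopf inhibitors that, unlike Dkk1, is not a general blocker of Lrp co-receptors, rose on both of its probe sets. On 1448669_at it read 4.99 at E11, 5.08 at E12, 5.59 at E13, 6.10 at E14, 6.49 at E15, 6.83 at E16, 6.55 at E17, 6.74 at E18 and 6.83 at P0. The level was higher on each next array to E16 and then changed by less than its residual SD of 0.30. P0 was at least 3.57-fold above E11, and the slope was 0.25 ± 0.038 log2 units per day (SE, 9 arrays; limma adjusted p = 0.000622). The probe set 1417312_at read 4.22 at E11, 4.89 at E12, 4.78 at E13, 5.22 at E14, 5.24 at E15, 5.24 at E16, 5.44 at E17, 5.80 at E18 and 6.23 at P0. Here the highest levels were the last 2, and the slope was 0.20 ± 0.033 (SE, 9 arrays; limma adjusted p = 0.000879). Such slopes were ordinary among rising probe sets, of which 39.5% and 51.3% were steeper. Tested astrocyte genes rose over the same days, and their median correlated with Dkk3 at 0.97. The medians of microglia and of olfactory ensheathing cells did so at 0.97 as well, and that of the GABAergic lineage at 0.91. The part of these cell types was not tested. Car10 (r = 0.996), Arf3 (0.992) and Rasgrf2 (0.992) were the genes most like Dkk3.

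**Figure D4:**
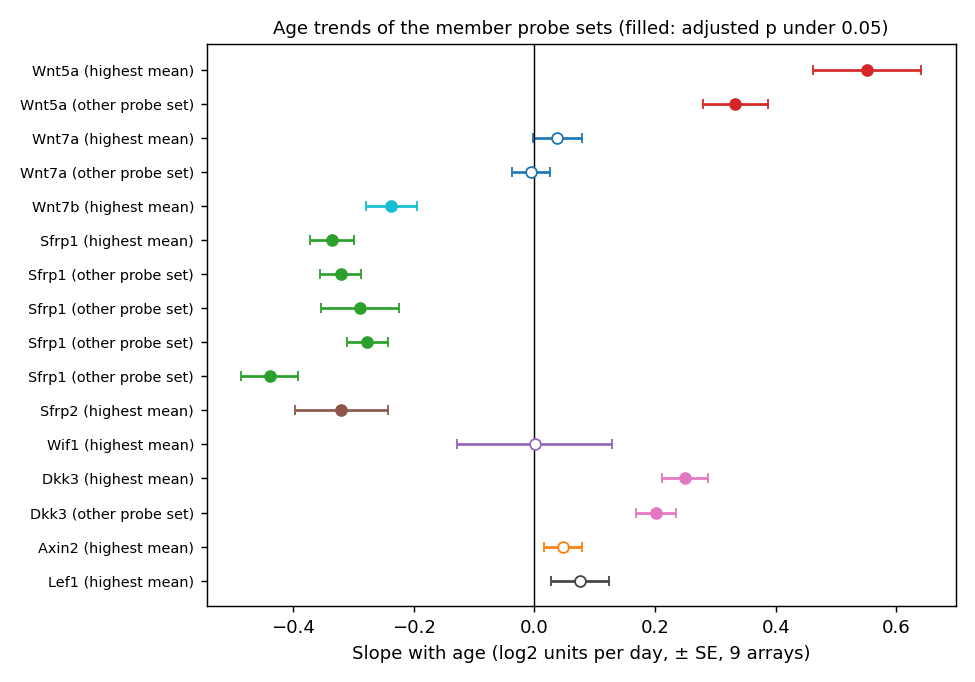
Slope of the log2 level on age, in log2 units per day, for the 16 tested probe sets, with bars of ± 1 SE over 9 arrays. Filled points passed the limma test at an adjusted p under 0.05. Both Wnt5a and both Dkk3 probe sets lie to the right of 0, Wnt7b, Sfrp2 and all 5 Sfrp1 probe sets to the left, and Wnt7a, Wif1, Axin2 and Lef1 are open.

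Axin2, a scaffold of the β-catenin destruction complex that is itself switched on by the canonical pathway, varied little. On 1436845_at it read 8.33 at E11, 7.83 at E12, 8.03 at E13, 7.93 at E14, 8.33 at E15, 8.49 at E16, 8.53 at E17, 8.05 at E18 and 8.50 at P0. E12 was lowest and E17 highest, 1.62-fold apart, with early and late arrays overlapping. The slope of 0.048 ± 0.032 log2 units per day did not pass (SE, 9 arrays; limma adjusted p = 0.239). The second probe set, 1421341_at, stayed between 2.36 and 2.55.

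Lef1, a β-catenin-binding transcription factor that is also a common target of the pathway, read 6.12 at E11, 5.95 at E12, 5.43 at E13, 5.72 at E14, 6.06 at E15, 6.72 at E16, 6.61 at E17, 6.56 at E18 and 5.96 at P0 on 1454734_at. It was lowest at E13 and highest from E16 to E18, 2.44-fold from E13 to E16, and P0 lay among the early values. The slope of 0.075 ± 0.048 did not pass (SE, 9 arrays; limma adjusted p = 0.226), nor did the quadratic term (0.958). The probe set 1421299_a_at did not exceed 2.21. The gene most like Lef1 was Clec14a (r = 0.979), an endothelial membrane protein, followed by Wasf2 (0.948) and Sdhd (0.946).

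Endothelial genes were compared with Lef1, which is active in brain vessels. Of 7 listed, 5 were tested, of which Cldn5 and Flt1 rose and Tek, Kdr and Esam did not pass, while Pecam1 and Cdh5 were under the filter. The median of the 5 was 8.13 at E11, 7.54 at E12, 7.53 at E13, 7.92 at E14, 8.40 at E15, 8.50 at E16, 8.26 at E17, 8.15 at E18 and 8.21 at P0. It was lowest at E13 and highest at E16, as Lef1 was, but on every array except E11 it was the level of Esam alone. Tek and Kdr were also lowest at E13 and highest at E16. Flt1 was lowest at E13 and highest at E18, and Cldn5 was lowest at E11 and highest at P0. Over the 9 arrays the correlation of the endothelial median was 0.73 with Lef1 and 0.81 with Axin2. The meninges and mesenchyme median gave 0.71 with Lef1 and 0.73 with Axin2, so these correlations do not single out a cell type. The part of vessel cells was not tested. The difference between Axin2 and Lef1 changed by -0.027 ± 0.049 log2 units per day (SE, 9 arrays; exact permutation p = 0.585, 0.825 after adjustment over 3 pairs), which does not show that they moved alike. The genes most like Axin2 were Meg3 (r = 0.966), Ssr3 (0.949) and Snx8 (0.948).

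The start regions of these genes are shown because both are known targets of Tcf and Lef factors, whose core motif is CTTTGA, or TCAAAG on the other strand. RefSeq's GRCm38.p6 table held 8 start sites of 5 members, Axin2, Lef1, Sfrp2, Wif1 and Wnt7a. In the 250 bases before each start, both strands were searched, and the 2 spellings cannot overlap each other. The motif was found before 1 of the 8 starts, which is 1 of 4 for Lef1, against 13.8% of all 32851 promoters of that length. The regions below are chr11:108920099-108920348 (plus strand) of Axin2, with no match, and chr3:131156044-131156293 (plus strand) of Lef1, with matches in capitals that begin 180 and 120 bases before the start. This Lef1 region was printed because it held the matches. The regions of the other Lef1 starts lie upstream of it, within chr3:131110047-131112790, and held none. A match describes the letters alone, and the lack of one says nothing about binding elsewhere.
Axin2: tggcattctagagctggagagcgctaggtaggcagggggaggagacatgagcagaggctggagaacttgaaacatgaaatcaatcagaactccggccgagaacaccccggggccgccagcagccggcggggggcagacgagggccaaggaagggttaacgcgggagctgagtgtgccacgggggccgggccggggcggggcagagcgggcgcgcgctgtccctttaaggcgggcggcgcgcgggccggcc
Lef1: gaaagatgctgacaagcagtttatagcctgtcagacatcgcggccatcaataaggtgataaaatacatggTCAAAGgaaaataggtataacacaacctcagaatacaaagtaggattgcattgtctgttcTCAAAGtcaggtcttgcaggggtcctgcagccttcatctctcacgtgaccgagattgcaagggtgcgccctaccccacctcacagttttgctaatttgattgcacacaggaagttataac

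The other genes of the pathway were described from a list of 99, of which 97 were on the array with a single name and 63 were tested. Of these 63, 22 rose, 14 fell and 27 did not pass, so 57.1% passed beside the 44.1% of all tested probe sets. Their median slope was 0.030 against -0.0051 for all. The list counts genes by their probe set with the highest mean, and the background counts every tested probe set, so the shares differ in basis. Among the other ligands, 14 of 16 stayed under the filter, with none above 4.18. Wnt6 rose (0.26 ± 0.059 log2 units per day, SE, 9 arrays; limma adjusted p = 0.00580), but not over E13 to P0 alone (0.102) or with values under log2 5 set to 5, and Wnt5b did not pass (0.0756). Both genes of Wnt secretion rose: Wls, the carrier that brings Wnts to the cell surface, by 0.40 per day from 7.24 at E11 to 9.69 at P0, and Porcn, the enzyme that adds their lipid, by 0.13 per day.

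Of the other secreted antagonists, Frzb and Sfrp4 rose and Draxin did not pass, with 9 of 12 under the filter. Frzb, a relative of Sfrp1, read 5.21 at E11, 4.11 at E12, 7.63 at E13, 7.59 at E14, 9.22 at E15, 9.49 at E16, 9.58 at E17, 10.11 at E18 and 9.94 at P0. Its slope of 0.71 ± 0.11 (SE, 9 arrays; limma adjusted p = 0.000607) ran opposite to those of Sfrp1 and Sfrp2. Frzb is also a marker of olfactory ensheathing cells, of whose 9 tested genes, Frzb among them, 8 rose. Their part in its course was not tested.

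Receptors moved both ways, with 5 of 15 tested rising, 4 falling and 6 not passing. The steepest rises were those of Fzd7 (0.41 per day), Ror1 (0.39), a receptor for Wnt5a, and Adgra2 (0.37), which acts with Reck in the response of vessels to Wnt7a and Wnt7b. Fzd6 rose by 0.17 and Reck by 0.12 per day. The falls were those of Fzd8 (-0.49), which went from 9.98 at E11 to 6.64 at P0, Fzd2 (-0.18), Fzd3 (-0.16) and Ryk (-0.11). Among R-spondin genes and their receptors, which amplify Wnt signals, Lgr5 (0.77 per day), Lgr6 (0.46) and Lgr4 (0.42) all rose, and Rspo2 and Rspo3 did not pass.

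Inside the cell, 8 of 13 cytoplasmic genes did not pass, among them β-catenin itself, Ctnnb1, with a slope of -0.0031 ± 0.011 log2 units per day on its probe set with the highest mean, between 14.78 and 14.95. A different Ctnnb1 probe set fell (-0.096, limma adjusted p = 0.0192) and another did not pass (-0.061, 0.0716), so the course of this gene is uncertain. Apc (0.20), Tnks (0.12) and Btrc (0.083) rose, and Tnks2 (-0.11) and Csnk1d (-0.070) fell. Other tested probe sets were called the opposite way for Tnks2 and Btrc, so their directions are uncertain. Of 9 nuclear factors, 5 fell, namely Tcf7l1 (-0.24), Tle4 (-0.18), Bcl9 (-0.17), Tcf7l2 (-0.13) and Tle3 (-0.13), and Tle2 rose (0.14). Of 7 further targets and feedback genes, Apcdd1 (0.39), Nkd1 (0.25) and Nkd2 (0.24), which restrain Wnt signals, rose, Ccnd1 (-0.41), the cell cycle gene cyclin D1, fell, and Myc, Tnfrsf19 and Znrf3 did not pass. Of 7 planar polarity genes, a branch in which Wnt5a acts, Prickle1 (0.55) and Prickle2 (0.33) rose, Celsr1 (-0.22) and Celsr2 (-0.10) fell, and 3 did not pass. Among those 3, Vangl2 had another probe set that fell (-0.21, limma adjusted p = 0.0177). Of the 36 calls on the list, 24 were the same under every alternative setting and 12 changed under at least 1. The least stable were Tcf7l2, lost in 13 of 20 settings (adjusted p up to 0.983), Btrc in 9 (up to 0.776), Celsr2 in 9 (up to 0.328) and Celsr1 in 3 (up to 0.0951). Wnt6, Tnks and Nkd1 lost their call in 2 settings each, and Sfrp4, Porcn, Ryk, Tle4 and Nkd2 in 1 each.

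**Figure D5:**
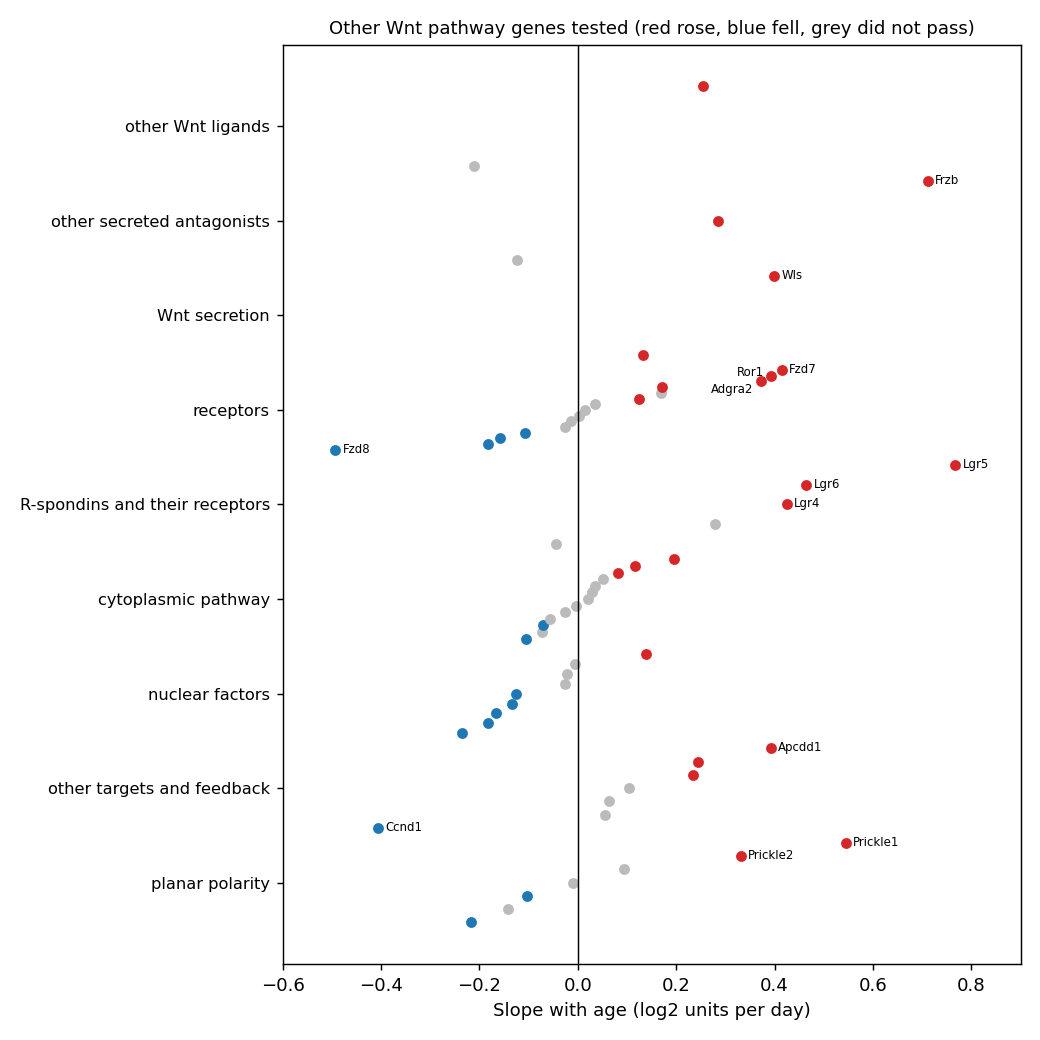
Slope of the log2 level on age, in log2 units per day, for the 63 tested genes of the wider Wnt pathway list, grouped by role. Each point is 1 gene, in red where it rose, blue where it fell and grey where it did not pass. The named genes include Lgr5 and Frzb at the right and Fzd8 and Ccnd1 at the left.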

How the data were processed

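Expression in the olfactory bulb of 9 mice, 1 array per age, was used as deposited: log2 values, 1 per probe set, computed by the authors with GCRMA (version not stated), per the submitters' processing notes. The method removes background using probe sequence and equalises the arrays. That the scale is log2 follows from the values' range and the method. Background correction pulls weak probe sets to a floor, so the size of changes near it is uncertain. Array number limits the precision of each value. The medians of the arrays were 4.08 to 4.23, so no scaling was added.

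GEO's platform annotation gave 34958 of 45101 probe sets a single gene symbol, 932 more than 1, and 9211 no symbol. Those with 1 name and log2 5 or more on at least 2 arrays were tested (18566). Slopes on age were fitted with limma 3.58.1 in R 4.3.3 (lmFit, eBayes with trend, 7 residual degrees of freedom, 10.4 after moderation), and curvature with a quadratic term. The fit was also run on simulated data with straight changes and independent scatter, which does not test courses that bend or step. P-values compare ages only through the scatter of single arrays around the line, which mixes biological and technical spread. The 3'- minus 5'-end difference of control probe sets, a sign of RNA quality, ran from 1.48 (E13) to 1.90 (E18) log2 units for actin and from 1.55 (E11) to 2.12 (E14) for Gapdh, mostly higher on later arrays, and its part in the trends was not tested. Differences between 3 pairs of genes were tested by exact permutation. All members were named. From the wider pathway list, up to 3 passing genes per role with the largest slopes were named, plus those that account for small counts. For likeness, the 3 highest correlations per member were named. The members and lists were chosen with earlier results of these data known. Alternatives were each array left out, E13 to P0 only, P0 at day 20, sex, scaling, filters, a limit at log2 5, 1 probe set per gene, probe set type, no variance trend and Spearman's correlation. Promoters were RefSeq's, and no genome sequence was used here.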

Additional observations from a re-analysis of the deposited data

How the results depend on the processing

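The counts of member genes that rose (2) and fell (3) did not change without each array in turn or under another setting, but from E13 to P0 the falling genes differed, with Wif1 in place of Sfrp2. The Wnt7a minus Wnt7b slope stayed between 0.265 and 0.289 without each array. The calls of 9 of the 11 passing probe sets held throughout. Sfrp2 (slope -0.121 from E13 to P0) and Sfrp1 on 1416594_at (-0.151 from E13 to P0, Spearman's rho -0.700) lost theirs. Of slopes that never passed over all ages, that of Wif1 changed sign, within -0.164 to 0.0605 without each array: it was -0.164 without E11, -0.0628 without E12, -0.00912 without E16, -0.409 from E13 to P0, -0.00648 with P0 at day 20, -0.0398 with sex, -0.00740 after quantile normalization, -0.0169 after median centring and -0.0461 with low values set to log2 5. Wnt7a on 1447647_at, within -0.0311 to 0.0187 without each array, turned to 0.0187 without E11, 0.000742 without E18, 0.0302 from E13 to P0 and 0.00102 with sex, and Wnt7a on 1423367_at to -0.0197 from E13 to P0. The slopes of the other pairs, which did not pass, ran without each array from -0.0530 to 0.0357 for Sfrp1 minus Sfrp2, being 0.00187 without E13, 0.0357 without E18 and 0.00438 without P0, and from -0.0857 to 0.00799 for Axin2 minus Lef1, being 0.00799 without E18. The count of curved member probe sets, 2 over all arrays, ranged from 0 to 2 without each array and was 1 with low values set to log2 5, 0 with sex and 3 with P0 at day 20, where Sfrp2 and Sfrp1 on 1428136_at passed and Wif1 did not. The cause of these changes was not tested. With 1 probe set per gene, the count over probe sets is a different quantity and was not given. No paired analysis was possible because each age has 1 sample and the labels carry no replicate numbers. Probe sets under log2 5 are near the floor, where the size of changes is uncertain. With no filter on low values, 5 member probe sets rose in place of 4.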

Other observations

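The R-spondins are secreted proteins that strengthen Wnt signals. Rspo1 read 6.54 at E11 and at most 2.82 on each of the 8 later arrays, so it was under the filter and not tested. Rspo3 read 6.78 at E11, 3.16 at E12, 6.24 at E14 and 5.45 at P0. Rspo2 read 5.47 at E11, 2.09 at E12, 5.12 at E17 and 5.67 at P0, so both were high again on later arrays. Rspo4 did not exceed 2.52. The median of the meninges and mesenchyme genes was likewise higher at E11 (6.82) than at E12 (4.96). Without E11, Rspo2 rose by 0.56 log2 units per day (limma adjusted p = 0.00109). These values were picked after they were seen.

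Wnt5b is the close paralog of Wnt5a. It read 7.45 at E11, 7.10 at E12, 5.66 at E13, 4.93 at E14, 5.20 at E15, 4.71 at E16, 5.30 at E17, 5.42 at E18 and 5.80 at P0. E11 and E12 stood above all later arrays, and from E13 the levels lay near the filter. Its quadratic term passed (limma adjusted p = 0.0134), as did that of 5.39% of all tested probe sets. Its straight slope, which did not pass over all arrays, passed as a fall without E14 or without P0. The difference between the paralogs was not tested.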
